A study of Mus musculus with 8 samples.

Results

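The genes described here are 52 genes of mitosis and chromosome segregation, measured by RNA-Seq in BV-2 cells among the 46078 genes of the count table. They were taken by symbol from a list of cyclins, kinases, kinetochore, condensin, spindle and cytokinesis genes that was drawn up for this pathway without a threshold on measured values, and each of the 52 was found in the table. The list was drawn up with earlier results of these data known. BV-2 is an immortalized line of mouse microglia, made with a retrovirus that carries the v-raf and v-myc oncogenes, so that its division is driven in part by viral oncogenes and its 1 line stands for no range of animals. The 4 groups had 2 libraries each. Control cells received none of the 3 agents. LPS cells were exposed for 20 hours to 100 ng/mL LPS, a bacterial outer membrane lipid that TLR4 senses. AGE+LPS cells were given aged garlic extract (AGE, 0.5% v/v), while the FruArg+LPS group was given 3 mM FruArg, a compound of fructose and arginine found in that extract, each from 1 hour before the same LPS exposure. Cells of every group, at passage 5 to 6, had spent 4 hours without serum, and none of these libraries had AGE or FruArg without LPS, so that their action on dividing cells in the absence of LPS was not measured.

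A cell enters mitosis when cyclin B and the kinase CDK1, helped by the Polo-like and Aurora kinases, reach full activity, and chromosomes are then condensed, attached to the spindle through kinetochores and pulled apart once the anaphase-promoting complex has destroyed securin and cyclin B. Most genes of this machinery are transcribed only late in the cycle, from promoters bound by the DREAM and MuvB-FOXM1 complexes, so that their mRNA is low in cells that are not dividing. In macrophages, LPS is known to stop proliferation driven by growth factors.

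Counts per library summed to 2707500 and 8995052 in the control, 8720784 and 12069807 in the LPS, 6795464 and 6669072 in the AGE+LPS, and 4692715 and 5822113 in the FruArg+LPS libraries, with replicate 1 given first here and below. In each group, replicate 1 came from a lane numbered 3 and replicate 2 from a lane numbered 6. FruArg+LPS replicate 1 stood apart from the other libraries. Thinned to the smallest total, 2707500 counts, it would hold 14157 genes, against 15392 to 16341 in the other 7 libraries, and its 10 largest genes held 14.9% of counts, against 10.8% to 13.3%. For each FruArg+LPS comparison, the number of called genes and the median over the 52 genes, fitted without a block, are therefore also given without it, while other values include it. Levels below are in CPM, counts scaled to library totals that were corrected by TMM, and 3 counts, taken as the floor, correspond on that scale to between 0.276 and 0.935 CPM per library, which covers counting error only. No library held 0 counts of any of the 52 genes.

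The microglial label was checked against markers of microglia and macrophages. Adgre1, Cd68, Csf1r, Ptprc, Tyrobp, Trem2 and Fcer1g were each above 100 CPM in every library. Spi1 had 80.1 CPM or more in each, Itgam had 79.9 and 70.7 CPM in the LPS libraries and more than 100 in the others, while Aif1, from 11.4 to 45.1 CPM, and C1qa, from 0.429 to 14.5 CPM, were lower. Markers that define resting microglia in brain were low or absent. Tmem119 had 0.312 and 0.375 CPM in the control libraries and 0 counts in both LPS libraries, P2ry12 had 6.24 and 9.29 CPM in the control libraries, and Cx3cr1 had 3.43 and 4.04. Markers of astrocytes, neurons, oligodendrocytes and fibroblasts, 5 of each, summed to at most 2.58, 2.18, 1.87 and 1.00 CPM in any library. Of the 5 endothelial markers, Flt1 lay between 82.0 and 110.3 CPM, while Cldn5 was at 0 counts in all 8 libraries and Cdh5, Pecam1 and Tek were near 0.

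The first comparison asks what 20 hours of LPS did to mitotic transcripts. After LPS, 46 of the 52 genes were down-regulated and 1, Pttg1, was up-regulated, where a differentially expressed gene (DEG) had to differ by 1 or more on the log2 scale, in either direction, with adjusted p (Benjamini-Hochberg, over all genes) below 0.05 in the quasi-likelihood F-test of edgeR. Of the 12888 genes tested, 11.1% were down-regulated and 11.5% up-regulated DEGs. In the background the split moved to 932 up-regulated and 2666 down-regulated DEGs, from 1485 and 1433, when libraries were scaled by their totals alone, and that scaling called 48 of the 52 genes down-regulated and Pttg1 up-regulated. The 5 genes that did not pass were Bub3, Smc4, Incenp, Hmmr and Cdc25c. The last of these passed with the replicate number, and so the lane, as a block (log2 fold change -1.27, adjusted p = 0.0312, and from 0.0239 to 0.199 over the alternatives run).

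The median log2 fold change of the 52 genes was -2.26, against 0.02 for all genes tested. The lower quartile was -2.92 and the upper quartile -1.56, 32 genes lay below -2 and 10 below -3. Within lanes the median log2 ratio of LPS to control was -2.03 in lane 3 and -2.53 in lane 6. In 49 of the 52 genes both LPS libraries lay below both control libraries, which held for 34.5% of all genes tested, and the exceptions were Incenp, Smc4 and Pttg1. Together the 52 genes made up 1508 and 1769 CPM of the control libraries and 537 and 566 CPM of the LPS libraries. A large part of the latter came from 2 genes, since without Pttg1 and Bub3 the sums were 1362 and 1599 CPM in control cells and 350.1 and 343 CPM after LPS. The libraries hold RNA of whole cultures, in which fewer dividing cells and less of this RNA per cell cannot be told apart.

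**Figure D1:**
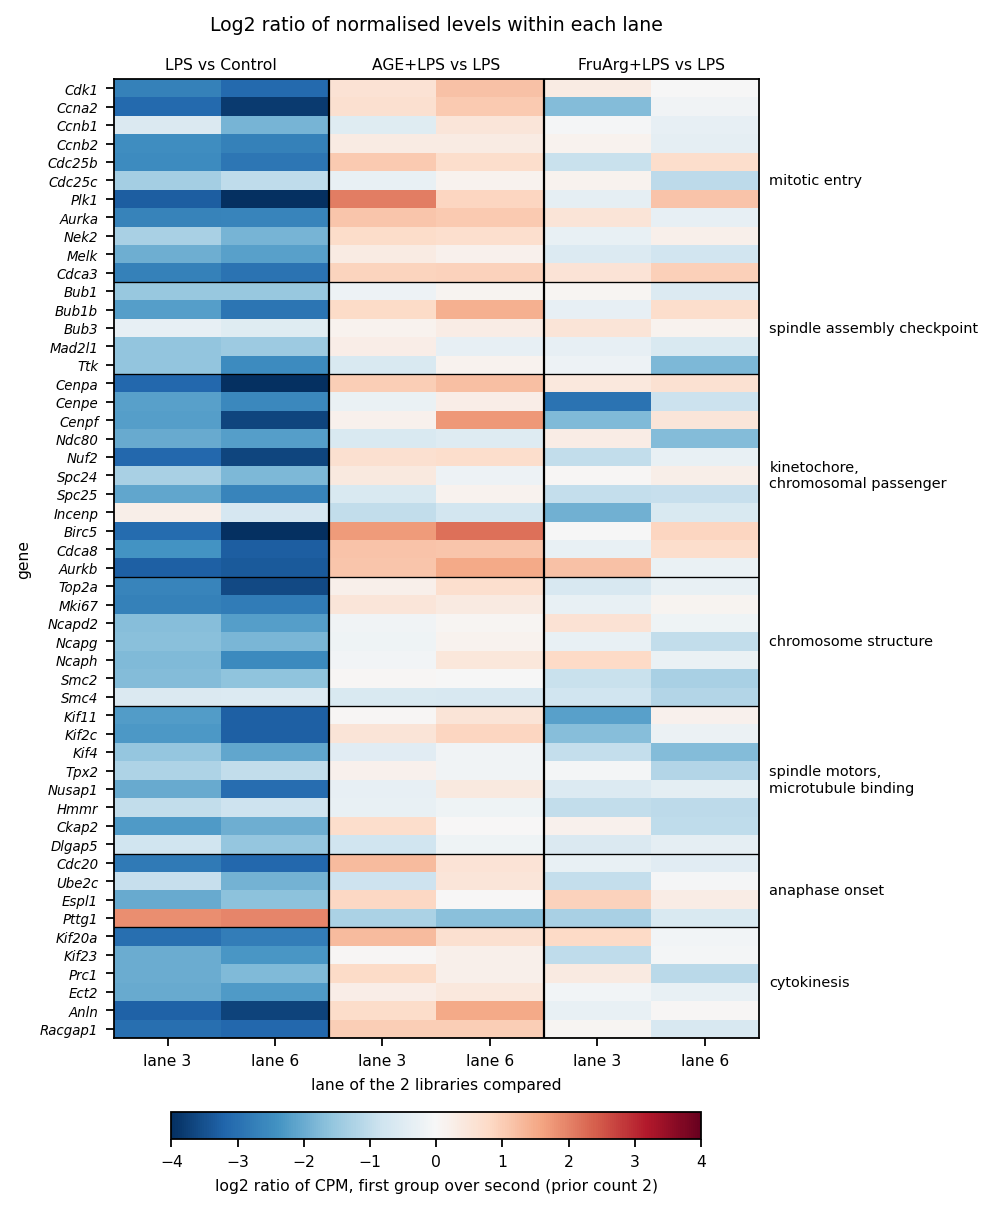
Log2 ratio of normalised CPM between 2 libraries of the same lane (colour, prior count 2) for the 52 genes (vertical axis, grouped by role) in 3 comparisons with a column for each lane. The LPS to control columns are blue for nearly all genes in both lanes with Pttg1 red, while the columns of AGE+LPS to LPS are pale, with Birc5 the deepest red in lane 6.

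Mitotic entry was the first of 7 roles. Here 10 of 11 genes were down-regulated, with a median log2 fold change of -2.69, and Cdc25c did not pass. Cdk1 (ENSMUSG00000019942, chromosome 10, 69335146 to 69352938), the kinase whose activation commits a cell to mitosis, had 56.8 and 64.8 CPM in the control, 8.52 and 7.18 in the LPS, 12.9 and 16.7 in the AGE+LPS and 10.8 and 7.04 in the FruArg+LPS libraries. Control libraries were the highest, and all 6 libraries with LPS lay below 20 CPM. The fall after LPS was -2.92 (SE 0.24, adjusted p = 5.21e-05 in edgeR). Plk1 (ENSMUSG00000030867, chromosome 7, 122159439 to 122169873), the Polo-like kinase of spindle poles and kinetochores, had the largest change of the 52 genes, at 6.24 and 10.8 CPM in the control, 0.376 and 0.368 in the LPS, 2.43 and 0.911 in the AGE+LPS and 0.23 and 1.14 in the FruArg+LPS libraries. Its counts were 20 and 115 in the control and 3 and 4 in the LPS libraries, so that the LPS level lies near the floor and the size of the change is poorly bounded, but control and LPS libraries did not overlap. The log2 fold change was -4.47 (SE 0.54, adjusted p = 0.00034 in edgeR). Ccnb1, which encodes cyclin B1, the partner of CDK1, had 17.1 and 22.8 CPM in control cells, 11.4 and 6.08 CPM with LPS, 8 and 8.65 CPM with AGE+LPS and 11 and 4.76 CPM with FruArg+LPS. The LPS libraries were below the control libraries, by less than for Cdk1. Its log2 fold change was -1.19 (SE 0.35, adjusted p = 0.0284 in edgeR), and the call was lost without control replicate 2 (-0.96, adjusted p = 0.151), without LPS replicate 2 (-0.79, adjusted p = 0.0504) and with all 4 groups in 1 fit (-1.22, adjusted p = 0.0606), with adjusted p from 0.000262 to 0.0606 over the alternatives that kept every library.

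In the spindle assembly checkpoint, which holds cells before anaphase until all kinetochores are attached, 4 of 5 genes were down-regulated, with a median log2 fold change of -1.51. Bub1, a kinase of this checkpoint, had 35.2 and 41.3 CPM in the control, 12 and 14.2 in the LPS, 10.3 and 15.2 in the AGE+LPS and 12.6 and 9.71 in the FruArg+LPS libraries. Mad2l1, whose product binds and holds back CDC20, had 18.7 and 23.2 CPM in control cells, 6.14 and 8.2 CPM with LPS, 7.43 and 6.53 CPM with AGE+LPS and 4.82 and 5.33 CPM with FruArg+LPS. For both genes all 6 libraries with LPS lay below the 2 control libraries. Their log2 fold changes after LPS were -1.51 (SE 0.24, adjusted p = 0.00152 in edgeR) and -1.51 (SE 0.29, adjusted p = 0.00415 in edgeR). Bub3 differed from the rest of the checkpoint and had the highest mean CPM of the 52 genes in control cells, although Top2a was level with it in control replicate 2. It had 122 and 139 CPM in the control, 98.3 and 100.1 in the LPS, 108 and 122 in the AGE+LPS and 141 and 109.5 in the FruArg+LPS libraries, a narrow range in which FruArg+LPS replicate 1 was the highest library and LPS replicate 1 the lowest. The log2 fold change after LPS of -0.36 (SE 0.19, adjusted p = 0.191 in edgeR) did not pass the test. The BUB3 protein also has partners outside mitosis, in pre-mRNA splicing.

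Among genes of the kinetochore and the chromosomal passenger complex, 10 of 11 were down-regulated, with the lowest median of the 7 roles, -2.90. Cenpa, the histone H3 variant that marks centromeres, had 28.7 and 26.9 CPM in the control, 3.01 and 1.29 in the LPS, 6.29 and 3.34 in the AGE+LPS and 4.13 and 2.1 in the FruArg+LPS libraries. Both control libraries were several-fold above the rest, both AGE+LPS libraries lay above both LPS libraries, and the FruArg+LPS libraries overlapped both of these groups. Its log2 fold change was -3.69 (SE 0.39, adjusted p = 0.000165 in edgeR). Ndc80, part of the complex that binds spindle microtubules, had 18.1 and 21.9 CPM in control cells, 4.26 and 4.51 CPM with LPS, 2.72 and 3.04 CPM with AGE+LPS and 5.28 and 1.14 CPM with FruArg+LPS. Control libraries were again the highest, and the FruArg+LPS replicates lay on either side of all other LPS-treated libraries. LPS changed it by -2.16 (SE 0.30, adjusted p = 0.000661 in edgeR) on the log2 scale. Cenpe, a kinesin that moves chromosomes to the spindle equator, had 25.9 and 33.7 CPM in the control, 5.51 and 5.43 in the LPS, 4.57 and 6.53 in the AGE+LPS and 0.459 and 2.86 in the FruArg+LPS libraries, with the lowest level in FruArg+LPS replicate 1, where it rested on 2 counts. Its log2 fold change after LPS was -2.42 (SE 0.28, adjusted p = 0.000248 in edgeR).

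The 4 members of the chromosomal passenger complex did not move alike. Birc5 (ENSMUSG00000017716, chromosome 11, 117849251 to 117855743), which encodes survivin, had 18.1 and 22.3 CPM in the control, 1.88 and 0.921 in the LPS, 6.72 and 5.31 in the AGE+LPS and 1.84 and 1.9 in the FruArg+LPS libraries. Means were 20.2 ± 3, 1.4 ± 0.677, 6.01 ± 0.994 and 1.87 ± 0.0474 CPM (SD, n = 2) in the same order. AGE+LPS libraries lay between the control libraries and the other LPS-treated libraries without overlap. Aurkb, the kinase of the complex, had 14.7 and 15.1 CPM in control cells, 1.25 and 1.2 CPM with LPS, 3 and 3.95 CPM with AGE+LPS and 3.21 and 0.952 CPM with FruArg+LPS, in the same order except that FruArg+LPS replicate 1 lay among the AGE+LPS values. The log2 fold changes after LPS were -3.86 (SE 0.40, adjusted p = 0.000149 in edgeR) and -3.56 (SE 0.37, adjusted p = 0.000148 in edgeR), and Cdca8, which encodes borealin, had -2.92. Incenp, the scaffold on which the complex is built, had 19.6 and 31.1 CPM in the control, 23.3 and 19.3 in the LPS, 11.7 and 11.4 in the AGE+LPS and 5.97 and 12.6 in the FruArg+LPS libraries. LPS and control libraries overlapped, and all 4 co-treated libraries were below both. The log2 fold change of Incenp after LPS was -0.24 (SE 0.28, adjusted p = 0.549 in edgeR), with within-lane ratios of 0.24 in lane 3 and -0.68 in lane 6, and the sign turned to 0.13 without control replicate 2.

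In chromosome structure, 6 of 7 genes were down-regulated, with a median of -1.95. Top2a, the topoisomerase that untangles sister chromatids, had 108 and 139 CPM in the control, 17 and 11.2 in the LPS, 19.7 and 17.9 in the AGE+LPS and 10.8 and 9.14 in the FruArg+LPS libraries. Mki67, which encodes the Ki-67 protein that coats mitotic chromosomes and is used as a marker of proliferation, had 50.8 and 63.3 CPM in control cells, 7.64 and 8.93 CPM with LPS, 10.7 and 11.5 CPM with AGE+LPS and 6.2 and 9.71 CPM with FruArg+LPS. In both genes every library with LPS was below 20 CPM and far under the control values. Their log2 fold changes were -3.10 (SE 0.27, adjusted p = 6.5e-05 in edgeR) and -2.75 (SE 0.25, adjusted p = 7.95e-05 in edgeR). The 5 condensin genes had smaller values, from -2.19 (Ncaph) to -0.55 (Smc4). Smc2, a core subunit of both condensins, had 35.5 and 38.4 CPM in the control, 10.5 and 12.2 in the LPS, 10.9 and 12 in the AGE+LPS and 5.51 and 4.76 in the FruArg+LPS libraries. Its LPS and AGE+LPS libraries overlapped and the FruArg+LPS libraries were the lowest. The change after LPS was -1.66 (SE 0.24, adjusted p = 0.000917 in edgeR) on the log2 scale. Smc4, the partner of SMC2, had 56.4 and 89 CPM in control cells, 37.4 and 60.2 CPM with LPS, 24.6 and 38.7 CPM with AGE+LPS and 21.4 and 26.5 CPM with FruArg+LPS. LPS replicate 2 lay above control replicate 1, so the groups overlapped, while within each lane LPS was the lower library, with log2 ratios of -0.59 in lane 3 and -0.56 in lane 6. The fitted value was -0.55 (SE 0.29, adjusted p = 0.19 in edgeR), and with the lane as a block -0.54 (SE 0.17, adjusted p = 0.00736 in edgeR), still under the minimum fold.

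Of the 8 genes of spindle motors and microtubule binding, 7 were down-regulated, with a median of -2.03. Kif11, the kinesin that separates spindle poles, had 49 and 69 CPM in the control, 10.3 and 6.91 in the LPS, 10.7 and 10.02 in the AGE+LPS and 2.07 and 7.81 in the FruArg+LPS libraries. Tpx2, which activates Aurora A on the spindle, had 39 and 45.9 CPM in control cells, 16.5 and 23.3 CPM with LPS, 18.6 and 21.1 CPM with AGE+LPS and 15.6 and 10.3 CPM with FruArg+LPS. Control libraries were the highest in both genes, but the distance to the LPS libraries was smaller for Tpx2. The log2 fold changes were -2.76 (SE 0.29, adjusted p = 0.00016 in edgeR) and -1.06 (SE 0.25, adjusted p = 0.0117 in edgeR). For Tpx2 the call was lost without control replicate 2 (-0.94, adjusted p = 0.0911) and without LPS replicate 1, where the change was -0.83 (adjusted p = 0.0147), and its adjusted p ran from 2.99e-05 to 0.0152 over the alternatives that kept every library.

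Anaphase onset held both directions, with 3 of 4 genes down-regulated and 1 up-regulated. Cdc20, the activator that directs the anaphase-promoting complex to its targets, had 20.6 and 16.9 CPM in the control, 2.63 and 1.66 in the LPS, 6.72 and 2.58 in the AGE+LPS and 2.07 and 1.14 in the FruArg+LPS libraries. Its control libraries were the highest, and AGE+LPS replicate 1 was next. The log2 fold change after LPS was -3.09 (SE 0.36, adjusted p = 0.000273 in edgeR). Pttg1 (ENSMUSG00000020415, chromosome 11, 43420250 to 43426251), which encodes securin, the inhibitor that anaphase destroys to free separase, had 24.3 and 31.2 CPM in the control, 88.8 and 123 in the LPS, 36.5 and 38.7 in the AGE+LPS and 35.6 and 79.8 in the FruArg+LPS libraries. Means were 27.8 ± 4.89, 106 ± 23.9, 37.6 ± 1.6 and 57.7 ± 31.2 CPM (SD, n = 2). LPS libraries were the highest of the 8 and did not overlap any other group, control libraries were the lowest, and the 2 FruArg+LPS libraries lay far apart. It rose after LPS by 1.95 (SE 0.25, adjusted p = 0.000421 in edgeR), and was called up-regulated in each alternative and with each library left out. Espl1, which encodes separase itself, had a log2 fold change of -1.85, opposite in sign to its inhibitor.

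All 6 genes of cytokinesis were down-regulated, with a median of -2.57. Kif23, a kinesin of the central spindle, had 16.8 and 17.4 CPM in the control, 4.01 and 3.22 in the LPS, 4.14 and 3.79 in the AGE+LPS and 1.84 and 3.05 in the FruArg+LPS libraries. Ect2, the exchange factor that activates RhoA at the division plane, had 24.3 and 24.8 CPM in control cells, 5.76 and 4.97 CPM with LPS, 7 and 6.83 CPM with AGE+LPS and 5.28 and 4 CPM with FruArg+LPS. In both, the 6 libraries with LPS lay below 8 CPM and the control libraries above 16 CPM. Their log2 fold changes were -2.21 (SE 0.31, adjusted p = 0.000795 in edgeR) and -2.16 (SE 0.28, adjusted p = 0.00046 in edgeR). The largest of this role was -3.56, for Anln, the actin-binding anillin of the cleavage furrow.

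Per kilobase of annotated exon, the mean level in control cells ran from 0.809 CPM per kb (Cdc25c) to 33.7 CPM per kb (Ccnb2), with 13.9 for Pttg1. The 3 genes with the smallest log2 fold changes after LPS, Incenp, Bub3 and Smc4, had 5.86, 18.6 and 13.9, so that they were not the genes of the lowest level per length. Of the 52 genes, 22 overlap another annotated gene, 18 of them one on the opposite strand, such as Cdc20 with Elovl1, Nusap1 with Oip5, Ccna2 with Exosc9 and Ncapg with Lcorl. These overlaps are of whole gene spans, introns included, and shared exons were not checked. The sources used here do not state that counting used strand. Reads of any exon bases shared between opposite strands therefore cannot be told apart.

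**Figure D2:**
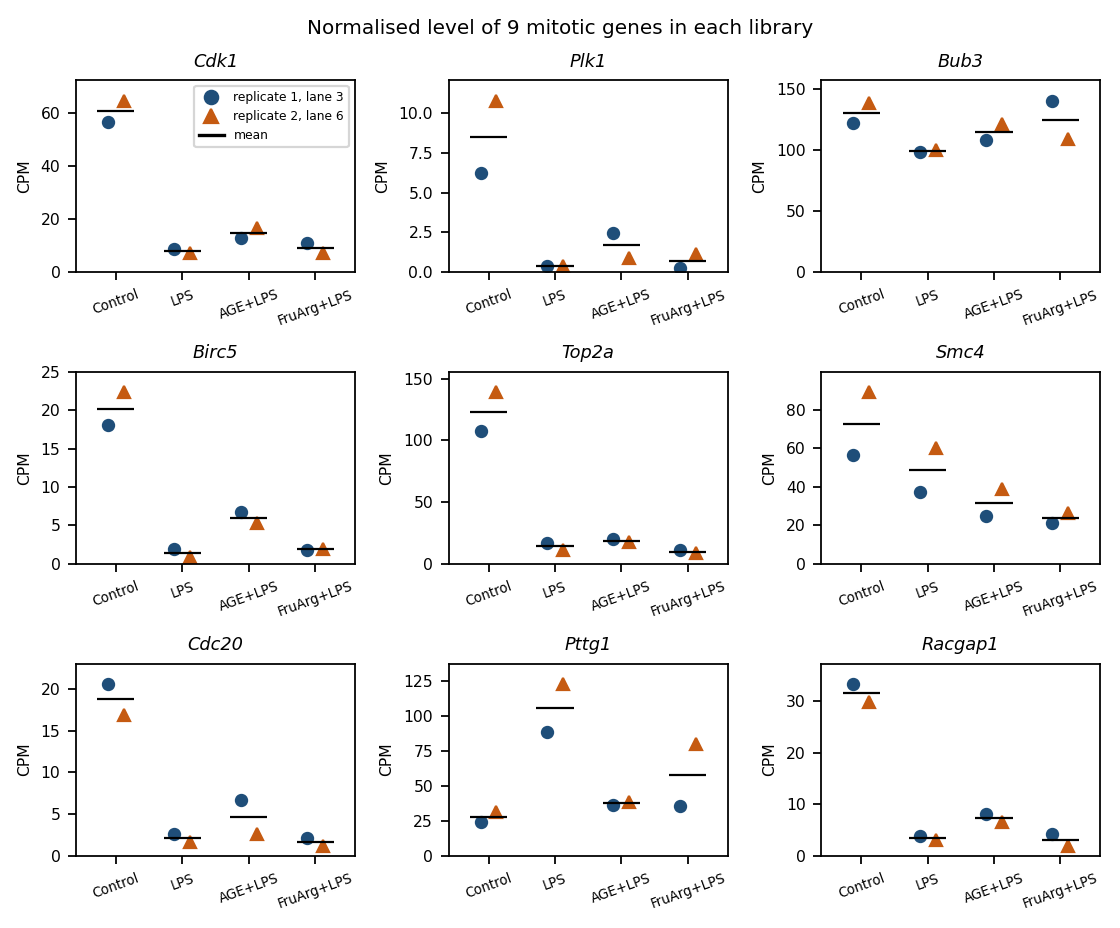
Level of 9 mitotic genes in CPM (vertical axes from 0, each with its own scale) in the 8 libraries by group, with replicate 1 of lane 3 as circles, replicate 2 of lane 6 as triangles and the mean of 2 libraries as a line. Control libraries are highest for Cdk1, Plk1, Birc5, Top2a, Cdc20 and Racgap1, and LPS libraries are highest for Pttg1.

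The next comparison asks whether AGE changed mitotic transcripts in LPS-treated cells. Without the block, 0 of the 51 genes tested were DEGs between AGE+LPS and LPS in edgeR, against 0.292% of all 12317 genes up-regulated and 0.503% down-regulated. At an unadjusted p below 0.05 there were 13 genes, or 25.5%, against 17.8% of all genes, and DESeq2 called 2, or 3.92%, against 4.47% of all genes, namely Birc5 up-regulated and Pttg1 down-regulated. The share at an unadjusted p was not above that of all genes in each fit, since with the block it was 22 genes, or 43.1%, against 47.0% of all genes, and without LPS replicate 2 it was 4, or 7.69%, against 12.9%. A block for the replicate number, and so the lane, gave 9 up-regulated genes and 1 down-regulated, against 4.91% and 4.82% of all genes. The median log2 fold change was 0.29, against -0.00 for all genes, and within lanes the median ratio was 0.27 in lane 3 and 0.36 in lane 6. In both lanes 29 of the 51 genes were higher with AGE than with LPS alone, against 38.1% of all genes tested, and 7 were lower in both, against 39% of all genes. Leaving out 1 library gave from 1 to 3 called genes, namely 1 when AGE+LPS replicate 1 was dropped (1.96%, against 2.68% of all genes), 2 for AGE+LPS replicate 2 (3.85%, against 4.72%), 3 for LPS replicate 1 (5.77%, against 5.1%) and 1 for LPS replicate 2 (1.92%, against 3.48%). These shares lie near those of all genes.

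By role, the 9 genes up-regulated with the block were 1 of mitotic entry (Aurka), 1 of the checkpoint (Bub1b), 4 of the kinetochore and chromosomal passenger complex (Cenpa, Birc5, Cdca8 and Aurkb), 1 of anaphase onset (Cdc20) and 2 of cytokinesis (Anln and Racgap1). None belonged to chromosome structure or to the spindle motors, for which edgeR with and without the block called 0 of 15 genes and gave 0 genes at an unadjusted p below 0.05 without it, and DESeq2 called 0. Over all genes 9.73% were called with the block, a share from which 15 genes are too few to set these roles apart, and 2 genes of chromosome structure, Top2a and Smc4, had adjusted p below 0.05 with the block at less than the minimum fold. The medians without the block were 0.80 for mitotic entry, 0.77 for the kinetochore and passenger genes, 0.75 for cytokinesis, 0.15 for anaphase onset, 0.01 for chromosome structure, 0.00 for the spindle motors and -0.04 for the checkpoint. Differences between roles were not tested. For the 7 of these 9 genes not described below, adjusted p in edgeR without and with the block was 0.123 and 7.56e-05 for Aurka, 0.159 and 6.63e-07 for Bub1b, 0.335 and 0.00778 for Cenpa, 0.198 and 0.000601 for Cdca8, 0.368 and 0.0207 for Cdc20, 0.204 and 0.00337 for Anln and 0.19 and 0.00236 for Racgap1. Their log2 fold changes ran from 1.06 to 1.21 without the block and from 1.05 to 1.22 with it.

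Birc5 had the largest change of the 51 genes tested. Plk1, which was not among them, had within-lane log2 ratios of 2.04 in lane 3 and 0.87 in lane 6. From 1.88 and 0.921 CPM with LPS, Birc5 stood at 6.72 and 5.31 with AGE+LPS, with all AGE+LPS values above all LPS values in either lane. Its log2 fold change was 2.13 (SE 0.49, adjusted p = 0.0869 in edgeR) without the block and 2.14 (SE 0.39, adjusted p = 2.44e-06 in edgeR) with it, with adjusted p from 2.44e-06 to 0.0912 over the alternatives. It was also called without AGE+LPS replicate 2 (2.29, adjusted p = 0.0202) and without LPS replicate 1 (2.69, adjusted p = 0.0116), but not without either of the other 2 libraries. Aurkb had 1.25 and 1.2 CPM with LPS and 3 and 3.95 with AGE+LPS, again without overlap. The values were 1.50 (SE 0.46, adjusted p = 0.157 in edgeR) and, with the block, 1.50 (SE 0.45, adjusted p = 0.00424 in edgeR), with within-lane ratios of 1.10 in lane 3 and 1.51 in lane 6. The LPS levels of both genes rest on few counts, 15 and 10 for Birc5 and 10 and 13 for Aurkb.

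Pttg1, the gene that had risen with LPS, was the one lowered by AGE under the block. Its 88.8 and 123 CPM with LPS stood against 36.5 and 38.7 with AGE+LPS, above the control values of 24.3 and 31.2. The log2 fold change was -1.49 (SE 0.24, adjusted p = 0.0532 in edgeR) without the block, just short of the threshold, and -1.48 (SE 0.11, adjusted p = 2.23e-21 in edgeR) with it, with adjusted p from 2.23e-21 to 0.0612 over the alternatives, and each fit with 1 library left out called it. Incenp, the passenger scaffold, was the gene of that complex whose AGE+LPS libraries lay below its LPS libraries, at a log2 fold change of -0.88 (SE 0.26, adjusted p = 0.144 in edgeR) and with the block -0.88 (SE 0.18, adjusted p = 3.18e-05 in edgeR), under the minimum fold. Smc4 was lower too, by a fitted -0.63, with within-lane log2 ratios of -0.60 in lane 3 and -0.63 in lane 6.

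Against control cells, which serve as controls for LPS cells as well, edgeR called 47 of the 52 genes down-regulated and 0 up-regulated with AGE+LPS (with the block, 49 and 0, where 18.0% of all genes were called), against 7.41% and 7.64% of 12449 genes, and at an unadjusted p below 0.05 there were 50 genes of either direction, against 31.6% of all genes, while DESeq2 called 46, all down-regulated, against 13.7% of all genes in either direction. The median log2 fold change was -1.91, beside -2.26 for LPS against the same control libraries. Birc5 had -1.74 beside -3.86, Plk1 -2.36 beside -4.47, Cdk1 -2.03 beside -2.92 and Mki67 -2.35 beside -2.75. Pttg1 had 0.44 (SE 0.23, adjusted p = 0.22 in edgeR), which did not pass. Of the 3 genes with the smallest values after LPS, Incenp had -1.14 (edgeR adjusted p = 0.0208) and Smc4 -1.20 (edgeR adjusted p = 0.0191), both called here, while Bub3 had -0.17 (edgeR adjusted p = 0.597) and was not.

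For FruArg, 0 of the 48 genes tested were DEGs between FruArg+LPS and LPS in edgeR, against 0% of the 12071 genes tested, with 6 genes at an unadjusted p below 0.05, or 12.5%, against 12.8% of all genes, and 0 in DESeq2, against 1.67%. With the lane as a block 5 genes, Cenpe, Incenp, Smc2, Hmmr and Smc4, were down-regulated, against 3.48% of all genes, and 0 were up-regulated, against 2.87%. The median log2 fold change was -0.40, against -0.01 for all genes, with -0.29 in lane 3 and -0.34 in lane 6 as within-lane medians. Its size depends on the fit, since it was -0.17 over 45 genes without LPS replicate 1 and -0.18 over the 33 genes with at least 10 counts in every library. In both lanes 22 of 48 genes were lower than with LPS alone, against 36.1% of all genes, and 5, Bub3, Cdca3, Cenpa, Espl1 and Spc24, were higher in both, against 34.3%. Plk1, Nuf2, Aurkb and Kif2c fell under the filter on low counts in this comparison. Of the 5 genes called with the block, Cenpe and Incenp belong to the kinetochore and passenger genes, Smc2 and Smc4 to chromosome structure and Hmmr to the spindle genes. Role medians without the block ran from -0.62 for the spindle genes to -0.07 for mitotic entry.

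Cenpe had 5.51 and 5.43 CPM with LPS and 0.459 and 2.86 with FruArg+LPS, both below the LPS values, with log2 fold changes of -1.67 (SE 0.74, adjusted p = 0.391 in edgeR) and, with the block, -1.82 (SE 0.67, adjusted p = 0.0475 in edgeR). Incenp had 23.3 and 19.3 CPM against 5.97 and 12.6, also without overlap, with -1.18 (SE 0.40, adjusted p = 0.304 in edgeR) and -1.22 (SE 0.31, adjusted p = 0.00312 in edgeR). Smc2 had 10.5 and 12.2 CPM against 5.51 and 4.76, with -1.14 (SE 0.40, adjusted p = 0.316 in edgeR) and -1.14 (SE 0.38, adjusted p = 0.0278 in edgeR). In these genes the FruArg+LPS libraries were the lower pair, and for Cenpe and Incenp replicate 1, the library that stood apart, was the lowest of the 8. Without that library edgeR called 0 of 51 genes, against 0.442% of all genes, with 5 at an unadjusted p below 0.05, or 9.80%, against 5.96%, and the median was -0.42. Without FruArg+LPS replicate 2 there were 6 called genes, all down-regulated, or 11.8%, against 6.89% of all genes down-regulated and 4.92% up-regulated, and a median of -0.28. For the other 2 genes called with the block, adjusted p in edgeR without and with it was 0.353 and 0.0142 for Hmmr and 0.284 and 0.000381 for Smc4. Their log2 fold changes were -1.04 and -1.02 without the block, and with it that of Smc4 only just reached the minimum fold. Within-lane ratios of Smc2 were -0.90 in lane 3 and -1.31 in lane 6, those of Smc4 -0.80 in lane 3 and -1.18 in lane 6 and those of Incenp -1.91 in lane 3 and -0.61 in lane 6. Pttg1 had a log2 fold change of -0.87 (SE 0.37, adjusted p = 0.386 in edgeR), and with the block -0.94 (SE 0.19, adjusted p = 0.000164 in edgeR), under the minimum fold, with within-lane ratios of -1.31 in lane 3 and -0.62 in lane 6.

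Against control, 48 genes were down-regulated and 0 up-regulated in FruArg+LPS cells in edgeR, against 7.84% and 9.59% of 12038 genes, with 50 genes at an unadjusted p below 0.05, against 35.8% of all genes, and 46 down-regulated and 1 up-regulated in DESeq2, against 16.7%. With the block 49 genes were down-regulated and Pttg1 was up-regulated, at 1.03 (SE 0.23, adjusted p = 0.00277 in edgeR), beside 1.07 (SE 0.37, adjusted p = 0.0762 in edgeR) without it, where 9.59% of all genes were down-regulated and 10.4% up-regulated with the block. The median was -2.68, beside -2.26 for LPS and -1.91 for AGE+LPS against the same control libraries. With at least 10 counts in every library, the values were -2.19 for FruArg+LPS (33 genes) and -2.21 for LPS (51 genes). Their order thus depends on the filter. When FruArg+LPS replicate 1 was left out 50 genes were down-regulated and 1 up-regulated, against 20.4% of all genes in either direction, with a median of -2.85. Between FruArg+LPS and AGE+LPS cells, 0 of 49 genes were DEGs in edgeR, against 0% of 11915 genes, and with the block 0 genes, against 0.898%, while 10 genes, or 20.4%, had an unadjusted p below 0.05 without it, against 5.61% of all genes, and 19, or 38.8%, with it, against 18.3%, and DESeq2 called 0. Without FruArg+LPS replicate 1 edgeR called 0 of 52, against 0.0805% of all genes, with 13 genes, or 25%, at an unadjusted p below 0.05, against 4.02%, and the median was -0.80. The other fits with 1 library left out had no such excess, with 2 genes, or 4%, against 8.02% without AGE+LPS replicate 1, 1 gene, or 2.04%, against 2.33% without AGE+LPS replicate 2, and 9 genes, or 17.3%, against 17.1% without FruArg+LPS replicate 2. The median of -0.74 had the same sign in both lanes, at -0.53 and -0.82, with 39 and 43 of the 49 genes lower with FruArg. The medians of all genes were -0.007 in lane 3 and 0.002 in lane 6, and the share of all genes lower in each lane is not given. The summed level of the 52 genes was 545 and 567 CPM with AGE+LPS and 454 and 429 with FruArg+LPS, or 400.2 and 406 against 277 and 239.9 CPM without Pttg1 and Bub3. The doses of AGE and FruArg are of different kinds, so that these values compare the treatments as given.

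The genes share promoter words that the choice of members did not use. RefSeq windows of GRCm38.p6, from 250 bases before to 50 after the start, were at hand for 43 of the 52 genes, and a gene with several windows was counted once if any of them held a word. On either strand, a CHR word (TTTGAA or TTTAAA) was present in 34 of 43 genes, or 79.1%, against 30.6% of 27025 genes with a window, and CCAAT in 33, or 76.7%, against 41.1%. These 2 words share no common core, although in Cdca8 a match to one overlaps a match to the other by 1 base. The E2F-type words TTTGGCGC, TTTGCCGC, TTTCGCGC and TTTCCCGC were present in 3, or 6.98%, against 2.605% of all genes. Both a CHR word and CCAAT were held by 30 genes, or 69.8%, against 12.2%. The 34 genes with a CHR word had a median log2 fold change after LPS of -2.47, and the 9 without it -2.17, a gap not tested, while the medians were -2.42 for the 33 genes with CCAAT and -2.39 for the 10 without it. Windows follow RefSeq starts, which can differ from the annotated gene start used above, by 270 bases into the gene for Pttg1, 328 for Kif4, 629 for Cdca3, 2394 for Cdca8 and, as the largest, 3867 for Kif2c, so that such windows miss the sequence before the annotated start. A match is a run of letters and not a measured binding site.

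Part of the windows, from 150 bases before to 30 after the start, is shown for 3 genes that fell, with matches to these words in capitals and the coding strand written 5′ to 3′. Plk1 (chr7:122159285-122159464, plus strand), the gene with the largest fall, Cdk1 (chr10:69352883-69353062, minus strand), with all 3 kinds of word, and Ccnb2 (chr9:70421525-70421704, minus strand), which encodes cyclin B2 and holds 3 CCAAT words, read as follows. Their windows start within 26 bases of the annotated start.
Plk1: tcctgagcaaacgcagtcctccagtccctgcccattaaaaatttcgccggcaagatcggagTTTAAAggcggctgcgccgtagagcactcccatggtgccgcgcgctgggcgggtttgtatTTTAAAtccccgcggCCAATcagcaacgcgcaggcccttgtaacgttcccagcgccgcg
Cdk1: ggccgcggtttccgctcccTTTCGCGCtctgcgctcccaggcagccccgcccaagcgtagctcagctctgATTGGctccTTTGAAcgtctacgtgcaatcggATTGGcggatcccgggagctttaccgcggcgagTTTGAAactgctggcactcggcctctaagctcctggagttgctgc
Ccnb2: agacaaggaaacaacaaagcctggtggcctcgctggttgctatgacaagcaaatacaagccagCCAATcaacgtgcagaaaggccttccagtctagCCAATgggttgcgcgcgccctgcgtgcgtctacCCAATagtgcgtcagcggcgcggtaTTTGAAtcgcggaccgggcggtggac

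Other genes of the division machinery, taken from fixed lists, were compared between LPS and control cells with the same test. Of 36 other kinetochore and centromere genes 20 were down-regulated and 1 up-regulated (median -1.12), with the largest falls in Ska2 (-4.14), which helps kinetochores hold microtubules, Knl1 (-3.17), the scaffold of the checkpoint at kinetochores, and Sgo1 (-2.96), the protector of centromeric cohesin. The gene that rose was Zwint, a kinetochore protein that binds KNL1, named here after its values were seen, with 76.4 and 104 CPM in the control, 199.6 and 249 in the LPS, 154 and 235 in the AGE+LPS and 169.5 and 213 in the FruArg+LPS libraries. Its log2 fold change was 1.34 (SE 0.23, adjusted p = 0.0021 in edgeR), so that Pttg1 was not alone in rising. Of 34 other spindle and cytokinesis genes, 22 of the 32 tested were down-regulated (median -2.18). Fam83d had 42 counts in control and 1 in LPS libraries, a ratio of 57.1 (95% exact interval 9.70 to 2308), and Kifc1 had 24 and 1, a ratio of 32.6 (5.32 to 1341). Aspm, a spindle pole protein, had a log2 fold change of -3.76 (SE 0.41, adjusted p = 0.000176 in edgeR).

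Among 19 other cohesin and condensin genes 6 were down-regulated (median -0.40), led by Cdca2 (-4.23), Lmnb1 (-3.72), which encodes lamin B1, and Esco2 (-3.42), an acetyltransferase of cohesin. Of 17 genes of the anaphase-promoting complex only its inhibitor Fbxo5 was a DEG in edgeR, with -1.93 (SE 0.43, adjusted p = 0.00827 in edgeR), and the median was 0.01. Thus the mRNA of the complex that Cdc20 and Ube2c serve had a median near that of all genes. Of 14 other entry regulators 7 were down-regulated (median -0.96), led by Pbk (-4.21), Wee1 (-2.77), the kinase that restrains CDK1, and Bora (-2.07), an activator of PLK1. Of 40 DNA replication genes 26 were down-regulated and 1 (Pola2, 1.13) up-regulated, with a median of -1.43. The largest falls there were in Rrm2 (-3.85), a subunit of ribonucleotide reductase, Tk1 (-3.08), thymidine kinase, and Mcm5 (-3.05), part of the replicative helicase.

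Regulators of the cycle were read in the same way. Of 23 transcription factor genes 8 of the 22 tested were down-regulated and 1, E2f5 (1.43), up-regulated, with a median of -0.20. Foxm1, which activates mitotic promoters, had 4.99 and 4.41 CPM in the control, 1.25 and 0.368 in the LPS, 0.858 and 1.37 in the AGE+LPS and 0.23 and 0.952 in the FruArg+LPS libraries, with control libraries above all others. Mybl2, its partner in the MuvB complex, had 12.5 and 13.9 CPM in control cells, 1.75 and 1.66 CPM with LPS, 3.14 and 1.67 CPM with AGE+LPS and 5.74 and 0.762 CPM with FruArg+LPS, again with the control libraries highest. The log2 fold changes were -2.53 (SE 0.62, adjusted p = 0.0129 in edgeR) and -2.91 (SE 0.36, adjusted p = 0.000372 in edgeR). E2f8 had 57 counts in control and 3 in LPS libraries, a ratio of 25.8 (95% exact interval 8.40 to 129). Of 10 G1 cyclin and kinase genes 4 of the 9 tested were down-regulated and 1 up-regulated, with -2.61 (SE 0.25, adjusted p = 9.89e-05 in edgeR) for Ccnd1 (cyclin D1), -1.66 (SE 0.28, adjusted p = 0.00204 in edgeR) for Ccne1 (cyclin E1) and 3.46 (SE 0.72, adjusted p = 0.00598 in edgeR) for Myc, whose own transcript had 0 and 5 counts in the control libraries.

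Of the inhibitors of the cycle and p53 targets, 10 of the 19 tested were up-regulated and 2 down-regulated, with a median log2 fold change of 1.13. Cdkn1a, which encodes the CDK inhibitor p21, had 11.8 and 15.9 CPM in the control, 130.0 and 95.9 in the LPS, 48.5 and 47.5 in the AGE+LPS and 64.8 and 106 in the FruArg+LPS libraries. All libraries with LPS exceeded the control libraries, and AGE+LPS libraries lay between them and the LPS libraries. Its log2 fold change after LPS was 3.03 (SE 0.26, adjusted p = 6.23e-05 in edgeR), and with AGE+LPS against LPS it was -1.23 (SE 0.23, adjusted p = 0.0615 in edgeR), or with the block -1.22 (SE 0.11, adjusted p = 2.27e-17 in edgeR), so that it passed with the block and not without it. Cdkn1b, which encodes p27, had 31.5 and 34.1 CPM in control cells, 66.8 and 74.3 CPM with LPS, 37.9 and 45.7 CPM with AGE+LPS and 38.6 and 43.2 CPM with FruArg+LPS, with the LPS libraries highest. LPS changed it by 1.14 (SE 0.21, adjusted p = 0.00316 in edgeR). The 2 that fell were Sesn1 (-3.42), which encodes sestrin 1, and Cdkn2c (-3.18), which encodes the CDK4 and CDK6 inhibitor p18. Of all these lists, only Ccng2, a cyclin of the p53 list, was a DEG between AGE+LPS and LPS without the block, at -1.45 (SE 0.19, adjusted p = 0.0389 in edgeR). That is 1 of the 197 genes of these lists tested. With the lane as a block 12 of them were up-regulated and 12 down-regulated, or 6.09% each way, against 4.91% and 4.82% of all genes, among them 5 up and 2 down of the other spindle genes, 4 down of the other kinetochore genes and 2 up and 3 down of the inhibitors, and DESeq2 called 2 up and 6 down, or 4.06%, against 4.47%. Between FruArg+LPS and LPS, edgeR called 0 of 185 without the block, with 29, or 15.7%, at an unadjusted p below 0.05, against 12.8% of all genes, and with the block 4 up-regulated and 10 down-regulated, or 2.16% and 5.41%, against 2.87% and 3.48%, while DESeq2 called 1 of each direction, or 1.08%, against 1.67%. List medians lay between -0.27 and 0.37 for AGE+LPS against LPS and between -0.70 and 0.16 for FruArg+LPS against LPS. No test was made of any list as a whole.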

How the data were processed

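Whole-number counts per Ensembl gene were used as deposited by the authors, who clipped and filtered single-end reads, mapped them with TopHat2 to GRCm38 and counted them with featureCounts. Tool versions and the use of strand are not given in the sources used here. Library preparation selected polyA RNA. For every pair of groups, edgeR 4.0.16 (R 4.3.3) was fitted to those 4 libraries alone (filterByExpr, TMM, glmQLFit and glmQLFTest, two-sided), with Benjamini-Hochberg adjustment over all genes tested. The SE is the absolute log2 fold change over the square root of F. Levels are TMM-normalized CPM over the 8 libraries, and within-lane ratios used log2 CPM (prior count 2). Symbols, positions (GRCm38) and exon lengths came from GENCODE M21. The fit was tested on simulated data, but the outcome is not given here and no value above rests on it. Alternatives were DESeq2 1.42.0, RLE factors, scaling by library totals, 2 other filters on low counts (1 count or more in total, 10 or more in each library), no minimum fold, a joint fit of the 4 groups, a block for the replicate number in pairwise and joint fits, and each library left out.

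The labels tie the replicate number to a lane shared by the 4 groups, which is where the pairing comes from. Column names of replicate 2 also carry a tag that those of replicate 1 lack. The lane cannot be told apart from other differences between the replicates. As a check, the change from replicate 1 to replicate 2 was compared between groups over 12873 genes, and Pearson r was 0.244 to 0.628, where genes are not independent replicates. Values with the block stand beside those without it for each of the 52 genes called with the block between a co-treatment and LPS. Between replicates the chi-square per degree of freedom was 8.69 (control) to 28.6 (LPS), so every pair differed by far more than sampling noise. The series text calls the replicates biological, and p-values measure the spread between 2 libraries.

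The members and the gene lists were chosen with earlier results of these data known. Values in all libraries are given for 18 genes that stand for the 7 roles, the 3 genes with the largest and the 3 with the smallest absolute log2 fold change after LPS, and the 3 with the largest change and a call for each co-treatment against LPS. From the related lists, the 3 DEGs with the largest change of each list and Foxm1, Mybl2, Cdkn1a, Cdkn1b, Ccnd1 and Ccne1 are named. Other genes named were chosen after their values were seen. A marker of the fixed cell type lists is not reported here. Plots were made in Python 3.11.15 (matplotlib 3.10.9). Floors and exact intervals cover counting error only.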

Additional observations from a re-analysis of the deposited data

How the results depend on the processing

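The fall of mitotic genes after LPS held in each alternative run, with 42 to 49 genes called against control, of which 41 to 48 were down-regulated and Pttg1 was up-regulated each time. Scaling by library totals moved the median of all genes by -0.42 (LPS), -0.25 (AGE+LPS) and -0.40 (FruArg+LPS) against control, and by 0.15 for AGE+LPS against LPS and -0.14 for FruArg+LPS against AGE+LPS. It gave member medians of -2.69 for LPS and -2.16 for AGE+LPS against control and 0.44 for AGE+LPS against LPS, which relative to all genes were -2.28, -1.92 and 0.30, beside -2.28, -1.92 and 0.29 with TMM. Of AGE+LPS against LPS, 0 members were called in the fit as reported, 2 with DESeq2 (4.47% of all genes), 1 with all groups in one fit (2.92%), 4 with the filter of at least 1 count (4.24%), 10 with the replicate block (9.73%) and 8 with the block and all groups in one fit (6.95%). With 1 library left out there were 1 to 3, with medians from 0.23 to 0.40. Of FruArg+LPS against LPS, 0 were called as reported, 1 with the filter of at least 1 count (2.36% of all genes), 5 with the replicate block (6.35%) and 6 with the block and all groups in one fit (6.63%), and 0 to 6 with 1 library left out. The median there was -0.18 with at least 10 counts in each library, a filter that left 33 genes, -0.45 and -0.43 with the 2 block fits, and -0.42 to -0.17 with 1 library left out. The same filter left 33 genes in FruArg+LPS against control, of which 31 were called, with a median of -2.19, while in LPS against control it left 51 genes, with a median of -2.21, so that the order of these medians depends on the filter. Of FruArg+LPS against AGE+LPS, 4 were called with the block and all groups in one fit (1.17% of all genes), and 0 to 2 with 1 library left out. The log2 fold change of Incenp after LPS ran from -0.51 to 0.13 with 1 library left out, and was 0.13 without control replicate 2. Apart from the effect of fewer genes under a filter, the cause of these shifts was not tested. In fits with 1 library left out, the lone library was assumed to vary like the other group. Over 22 named genes in LPS against control, 257 of 263 values under the alternatives kept their direction and their side of the threshold, as did 88 of 120 for 10 genes in AGE+LPS against LPS and 44 of 59 for 5 genes in FruArg+LPS against LPS, where the others passed the threshold. Against control, fits of AGE+LPS that kept every library called 43 of 52 genes at least (82.69%, against 12.41% of all genes), with all groups in one fit. Scaling by library totals called the most, 50 of 52 (96.15%, against 16.61%). For FruArg+LPS the lowest share was 47 of 52 (90.38%), with DESeq2 (16.66% of all genes) and with all groups in one fit (17.17%). The highest was 96.15%, as with the replicate block (19.98%). With 1 library left out, medians ran from -2.02 to -1.83 for AGE+LPS and from -2.85 to -2.42 for FruArg+LPS. These data hold 2 libraries per group of a single cell line at 1 time, each group with 1 library per lane, and no measure of cell number, cell cycle phase or protein. Of the 52 genes, 25 had 15 or fewer counts in at least 1 of the 6 libraries with LPS, among them Plk1, Aurkb, Birc5, Cenpe, Cenpa and Cdc20, which limits their fold changes.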
